A study of Mus musculus with 6 samples.

Results

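The genes examined here are 10 markers of microglia, namely C1qa, C1qb, C1qc, Csf1r, Cx3cr1, Trem2, Tyrobp, Aif1, P2ry12 and Itgam, read in the brain of mice with an activated human SRY transgene. They were taken by gene symbol, and the array carried 13 probes for these 10 genes among 25697 probes and 18138 symbols in all. Brain RNA of male FVB pups (FVB/N background) at postnatal day 6 was hybridized to Illumina MouseRef-8 bead arrays, 3 from hSRY-OFF and 3 from hSRY-ON mice. In hSRY-OFF mice the Signalox-hSRY transgene at the H11 locus was intact, so that the CAG promoter, active in nearly all cells, drove the red fluorescent protein DsRed2. In hSRY-ON mice Cre recombinase carried over in the oocyte of a Ddx4-Cre mother had removed DsRed2 in the early embryo, and the same promoter drove FLAG-tagged human SRY together with EGFP. The hSRY-ON mice chosen for the arrays did not themselves carry Ddx4-Cre. The groups therefore differed in the fluorescent protein and in Cre exposure as well as in SRY, and the 3 cannot be told apart. Mothers and litters of the arrayed pups were not stated and may also have differed. The paper also reports slower growth, little suckling and smaller brains in hSRY-ON pups, and these cannot be told apart from SRY either. All mice came from a single transgenic line with 1 copy of the transgene.

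Microglia are the resident macrophages of the brain. They descend from yolk sac progenitors, depend on signalling through the receptor CSF1R, and in the first postnatal weeks multiply, clear dying cells and remove synapses. C1q, which starts the classical complement pathway, is built from the A, B and C chains encoded by C1qa, C1qb and C1qc, and microglia are its main source in the brain. C1q tags synapses, complement component C3 is deposited on them, and the integrin CR3, of which Itgam encodes the alpha chain, lets microglia take them up. In RNA of brain tissue, more microglia and more transcript per microglial cell cannot be told apart.

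C1qb, C1qc and C1qa lie next to one another in this order on mouse chromosome 4 in the RefSeq annotation of GRCm38.p6, with no other gene between them. The 250 bases upstream of the start sites of C1qb and C1qc are shown because these members had the lowest p-values. They are given 5′ to 3′ on the gene's strand (minus for both), as chr4:136886201-136886450 for C1qb and chr4:136892915-136893164 for C1qc. Capitals mark GAGGAA on either strand (TTCCTC when read on the gene's strand), the core of the site bound by PU.1, the transcription factor on which macrophage and microglial identity depends.
C1qb: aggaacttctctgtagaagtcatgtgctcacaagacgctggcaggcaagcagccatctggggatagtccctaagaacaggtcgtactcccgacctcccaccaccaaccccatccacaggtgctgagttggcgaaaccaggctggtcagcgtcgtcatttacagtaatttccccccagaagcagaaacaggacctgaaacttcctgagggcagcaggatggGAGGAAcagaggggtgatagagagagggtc
C1qc: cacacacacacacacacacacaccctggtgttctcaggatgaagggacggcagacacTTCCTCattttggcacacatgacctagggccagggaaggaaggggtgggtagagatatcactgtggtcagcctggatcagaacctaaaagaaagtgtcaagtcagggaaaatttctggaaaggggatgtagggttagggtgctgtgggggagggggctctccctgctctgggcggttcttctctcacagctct
Each window held the letters once. The RefSeq promoter table listed 7 of the 10 genes, and 5 of these 7 windows (C1qb, C1qc, Trem2, Aif1 and Itgam) held them, whereas 23.3% of all 32851 windows of the same length did. A match of these letters is a description and shows no binding.

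The members were first checked for detection, since a bead array reads a transcript only through the 1 to 3 short probes carried for each of these genes. Of the 13 probes, 11 were detected above background on all 6 arrays and were tested, and they covered 9 of the 10 genes. The Itgam probe (ILMN_2696017) was detected on none, with detection p-values between 0.286 and 0.924, so the level of this integrin chain was not measured. One of the 3 Aif1 probes (ILMN_1218123) was also detected on none, at 0.278 to 0.875. Microglial transcripts were thus detected for 9 of the 10 genes. Neurons, astrocytes, oligodendrocytes and endothelium were read as well, with 14 of the 17 probes for 11 brain tissue markers tested, while Snap25 was below background on every array. The 6 arrays were alike in brightness, with 13816 to 14377 probes detected on each.

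Across the 11 tested probes, 0 passed an adjusted p of 0.05 in limma, against 2.17% of all 14215 tested probes (0.844% higher and 1.32% lower in hSRY-ON). Of the 11, 3 had an unadjusted p under 0.05 (27.3%), against 20.9% of all. All 3 of these were higher in hSRY-ON, and they were also the only 3 for which the arrays of the groups did not overlap, again 27.3% against 27.7% of all probes. The median log2 fold change (hSRY-ON minus hSRY-OFF, as throughout) was 0.12 for the members and 0.0048 for all tested probes, whose quartiles were -0.14 and 0.14. Of the 11 values, 7 were positive and 4 negative, between -0.20 and 0.45. Without hSRY-OFF array 2 the members' median was 0.23, and without hSRY-OFF array 1 it was 0.06.

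**Figure D1:**
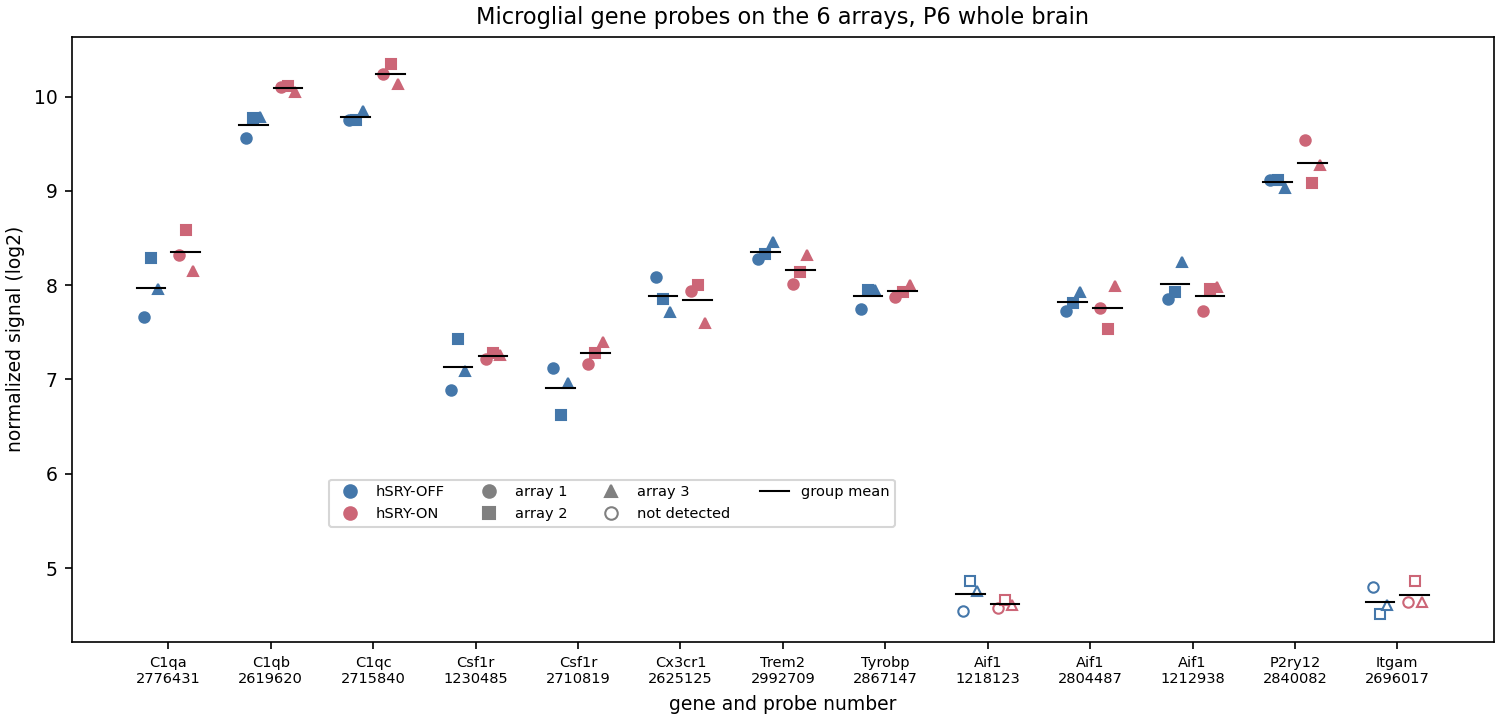
Normalized log2 signal (vertical axis) of the 13 probes of the 10 microglial genes (horizontal axis) on each hSRY-OFF and hSRY-ON array, with the group mean as a bar and open symbols for the 2 probes detected on no array. C1qb and C1qc have all hSRY-ON arrays above all hSRY-OFF arrays, as does 1 of the 2 Csf1r probes.

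The C1qc and C1qb probes held the largest differences among the members, with those of C1qa and of 1 Csf1r probe close to C1qb. Their order moved with the arrays used. Without hSRY-OFF array 1 that Csf1r probe (ILMN_2710819) was the largest at 0.48, and without hSRY-OFF array 2 C1qa was the largest at 0.54. Without hSRY-ON array 3 C1qa was above C1qb, at 0.48 against 0.40. For C1qc (ILMN_2715840), which encodes the C chain, the normalized log2 signal in hSRY-OFF was 9.75, 9.75 and 9.85 (arrays 1, 2 and 3, the order used throughout), and in hSRY-ON it was 10.24, 10.34 and 10.13. Every hSRY-ON array lay above every hSRY-OFF array, and so did the deposited signals, at most 1139.6 in hSRY-OFF and at least 1219 in hSRY-ON. The group means were 9.79 ± 0.06 and 10.24 ± 0.10 (SD, n = 3), a 1.37-fold difference with a 95% interval of 1.19 to 1.58 (log2 fold change 0.45, SE 0.09). The limma adjusted p was 0.0506, just outside the threshold, with an unadjusted p of 0.00115 that ranked 323 among all probes.

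C1qb (ILMN_2619620), for the B chain, read 9.56, 9.77 and 9.78 in hSRY-OFF and 10.10, 10.11 and 10.05 in hSRY-ON. The groups were again apart, and the hSRY-ON arrays lay close together. The difference was 1.30-fold with a 95% interval of 1.13 to 1.51 (log2 fold change 0.38, SE 0.09, limma adjusted p 0.0733). C1qa (ILMN_2776431), for the A chain, was dimmer and more variable, with 7.66, 8.29 and 7.96 in hSRY-OFF and 8.32, 8.58 and 8.15 in hSRY-ON. Its groups overlapped, because hSRY-OFF array 2 exceeded hSRY-ON array 3. Its fold was 1.30 with an interval of 0.97 to 1.75 (log2 fold change 0.38, SE 0.18, limma adjusted p 0.281), and the log2 value was 0.22 without hSRY-OFF array 1 and 0.25 without background correction.

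These 2 near-threshold values depended on how the spread was estimated, how the background was treated and which probes were tested. C1qc passed in 6 of 15 alternative fits and C1qb in 4 of 15, at adjusted p between 0.00169 and 0.155 for C1qc and between 0.00749 and 0.182 for C1qb, and both were positive in all 15. C1qa did not pass in any (0.114 to 0.530). With 1 array left out, C1qc passed when that array was hSRY-ON array 3, at an adjusted p of 0.0466, and in no other such fit. Without hSRY-ON array 3 the C1qc log2 fold change was 0.50, and over all fits without an array it lay between 0.40 and 0.50.

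**Figure D2:**
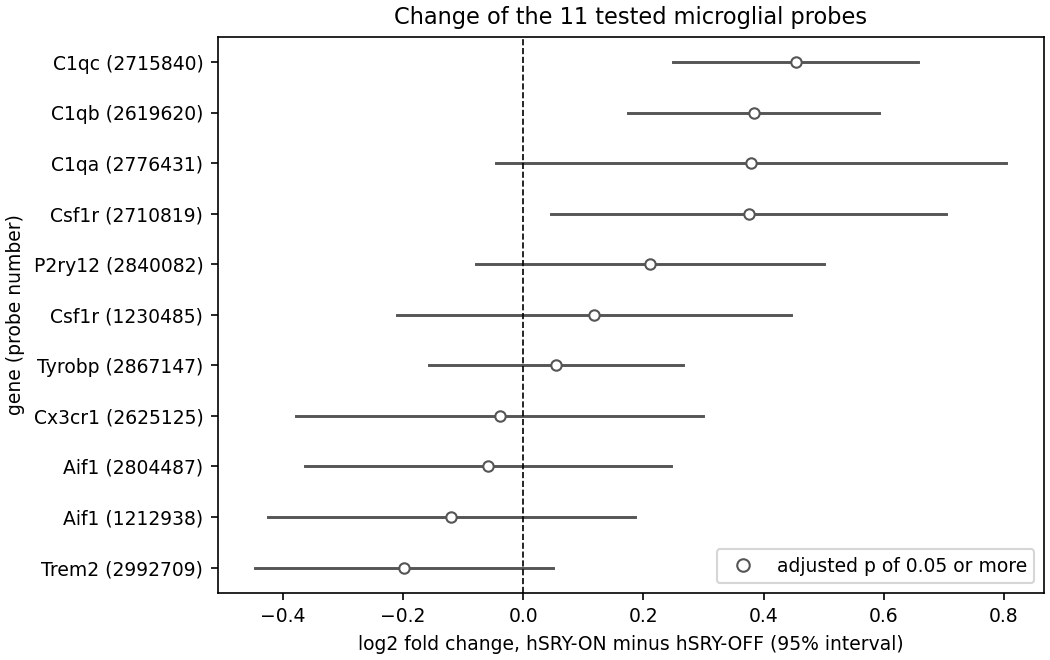
Log2 fold change (horizontal axis, hSRY-ON minus hSRY-OFF) with its 95% interval from limma for the 11 tested microglial probes (vertical axis). The intervals of C1qc, C1qb and Csf1r probe ILMN_2710819 exclude 0, and no adjusted p was under 0.05.

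The receptors on which microglia depend gave a divided reading. Csf1r encodes the receptor for the survival factors CSF1 and IL-34, and its 2 probes differed. Probe ILMN_2710819 read 7.13, 6.63 and 6.97 in hSRY-OFF and 7.17, 7.28 and 7.40 in hSRY-ON, so the normalized groups did not overlap but came within 0.05 of each other. Its log2 fold change was 0.38 (SE 0.14, 95% interval 0.05 to 0.70, limma adjusted p 0.188), and it was 0.24 without hSRY-OFF array 2 and 0.18 without background correction. The deposited signals did overlap, at 315, 247 and 269 in hSRY-OFF against 297, 295 and 311 in hSRY-ON. Probe ILMN_1230485 read 6.89, 7.43 and 7.09 in hSRY-OFF and 7.22, 7.28 and 7.26 in hSRY-ON. Here the hSRY-ON arrays lay within the hSRY-OFF range, and the log2 fold change was 0.12 (SE 0.14, interval -0.21 to 0.45, adjusted p 0.676), at -0.0058 without hSRY-OFF array 1.

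Cx3cr1 encodes the receptor for the neuronal chemokine fractalkine. Its probe (ILMN_2625125) read 8.09, 7.86 and 7.71 in hSRY-OFF and 7.94, 8.003 and 7.60 in hSRY-ON, and the groups overlapped. The log2 fold change of -0.04 (SE 0.14, interval -0.38 to 0.30, limma adjusted p 0.908) changed sign in 3 of 15 alternative fits. P2ry12, a purinergic receptor that steers microglial processes towards released nucleotides, read 9.11, 9.12 and 9.03 in hSRY-OFF and 9.54, 9.08 and 9.28 in hSRY-ON (ILMN_2840082). hSRY-ON array 2 lay inside the hSRY-OFF range while the other 2 lay above it. The log2 fold change was 0.21 (SE 0.12, interval -0.08 to 0.50, limma adjusted p 0.373), and leaving out hSRY-ON array 1 or 2 gave 0.09 or 0.32.

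Trem2 encodes a lipid-sensing receptor that drives microglial phagocytosis, and Tyrobp its signalling adaptor, also called DAP12. Trem2 (ILMN_2992709) had the lowest fold change of the members, with levels of 8.27, 8.34 and 8.46 in hSRY-OFF and 8.01, 8.14 and 8.32 in hSRY-ON. Only hSRY-ON array 3 reached into the hSRY-OFF range. The deposited signals, before background correction and normalization, did not overlap, at 506, 470 and 487 against 415, 416 and 457. The log2 fold change was -0.20 (SE 0.10, interval -0.45 to 0.05, limma adjusted p 0.329), and it was negative in all 15 alternative fits, between -0.28 and -0.12. Tyrobp (ILMN_2867147) read 7.75, 7.94 and 7.95 in hSRY-OFF and 7.88, 7.92 and 8.003 in hSRY-ON. This was among the narrowest intervals of the members, 0.90 to 1.20-fold (log2 fold change 0.05, SE 0.09, limma adjusted p 0.776), with a sign that turned without hSRY-OFF array 1.

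Aif1, which encodes the actin-bundling protein IBA1 used to stain microglia, had 2 detected probes. The brighter on average (ILMN_1212938) read 7.85, 7.93 and 8.24 in hSRY-OFF and 7.72, 7.96 and 7.98 in hSRY-ON. The other (ILMN_2804487) read 7.73, 7.81 and 7.93 in hSRY-OFF and 7.76, 7.54 and 7.995 in hSRY-ON. Both overlapped between the groups, with log2 fold changes of -0.12 (interval -0.43 to 0.19, limma adjusted p 0.647) and -0.06 (interval -0.36 to 0.25, adjusted p 0.836). The first was -0.0020 without hSRY-OFF array 3, and the second turned to 0.05 without hSRY-ON array 2.

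The C1q probes varied together from array to array. The Pearson correlation over the 6 arrays was 0.94 between C1qb and C1qc, 0.82 between C1qa and C1qb and 0.73 between C1qa and C1qc. Set against the mean of the C1q probes, it ran from 0.63 and 0.44 for the Csf1r probes, 0.51 for Tyrobp and 0.43 for P2ry12 to -0.09 for Cx3cr1, -0.22 and -0.35 for the Aif1 probes and -0.62 for Trem2. The points share arrays and the group difference, and 6 of them give only a description. Outside the C1q genes, the 5 probes with the pattern most like the C1q mean were those of Trove2 (r = 0.999), LOC670044 (0.998), Pcsk2 (0.993), LOC100047214 (0.992) and Gnas (0.991). None of the 5 passed the limma threshold, and 98 probes (0.690%) reached an r of 0.95.

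Other genes of microglia and of the myeloid lineage were read from a list of 40, of which 39 were found and 26 had tested probes. Of the 33 tested probes, 1 rose and 1 fell past an adjusted p of 0.05 in limma. At an unadjusted p under 0.05 there were 2 higher and 7 lower, 27.3% of the list against 20.9% of all tested probes, of which 10.1% were higher and 10.9% lower. The median log2 fold change was -0.09. Mertk, a receptor tyrosine kinase through which microglia and astrocytes engulf apoptotic cells and synapses, rose. Its signal (ILMN_2714638) was 7.42, 7.23 and 6.96 in hSRY-OFF and 8.61, 8.35 and 7.96 in hSRY-ON, with every hSRY-ON array above every hSRY-OFF array. The rise was 2.15-fold (95% interval 1.58 to 2.92, log2 fold change 1.11, SE 0.19, limma adjusted p 0.0386).

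Hcls1, which encodes a cortactin-like protein of blood cells, fell in this test. Its probe (ILMN_2685516) was detected on all 3 hSRY-OFF arrays, at 5.80, 6.03 and 5.77, and on no hSRY-ON array, where it read 4.98, 5.25 and 5.09. The level in hSRY-ON was therefore only bounded, and hSRY-OFF was at least 1.34-fold higher (limma adjusted p 0.0313). Such a bound takes the hSRY-OFF mean over, on each hSRY-ON array, the dimmest signal that still counted as detected. A probe that passed the detection filter through 1 group alone had to differ between the groups.

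The next largest values on each side did not pass. Ltc4s, leukotriene C4 synthase, had a log2 fold change of 0.41 (SE 0.09, limma adjusted p 0.0603) with the groups apart. Fcrls, a microglial Fc receptor-like scavenger receptor listed on the array as Msr2, read 8.99, 9.06 and 9.13 in hSRY-OFF and 8.39, 8.46 and 8.72 in hSRY-ON. Its groups were apart with hSRY-OFF above, at -0.54 (SE 0.11, adjusted p 0.0542). Chosen after their values were seen, P2ry13, a purinergic receptor of resting microglia, stood at -0.39 (adjusted p 0.0916), the lysosomal protein gene Cd68 at -0.43 (adjusted p 0.139), the lipopolysaccharide co-receptor gene Cd14 at -0.47 (adjusted p 0.0811) and the microglial marker Tmem119 at 0.35 (adjusted p 0.247). Among homeostatic microglial markers, P2ry12 and Tmem119 were above 0 with the groups overlapping, and P2ry13 and Fcrls were below 0 with the groups apart. Also chosen after their values were seen, the Gpr34 probes had -0.44 (adjusted p 0.166) and -0.29 (adjusted p 0.505), and Lcp1 had -0.46 (adjusted p 0.108). Over the 33 tested probes 13 values were positive and 20 negative. The groups were apart for 2 higher and 8 lower, 30.3% against 27.7% of all probes. Ctss, Cybb, Fcer1g, Irf8, Itgb2, Ptprc, Runx1, Slc2a5 and Syk were among the genes below background at every probe, so the Itgam partner chain encoded by Itgb2 was not measured either.

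**Figure D3:**
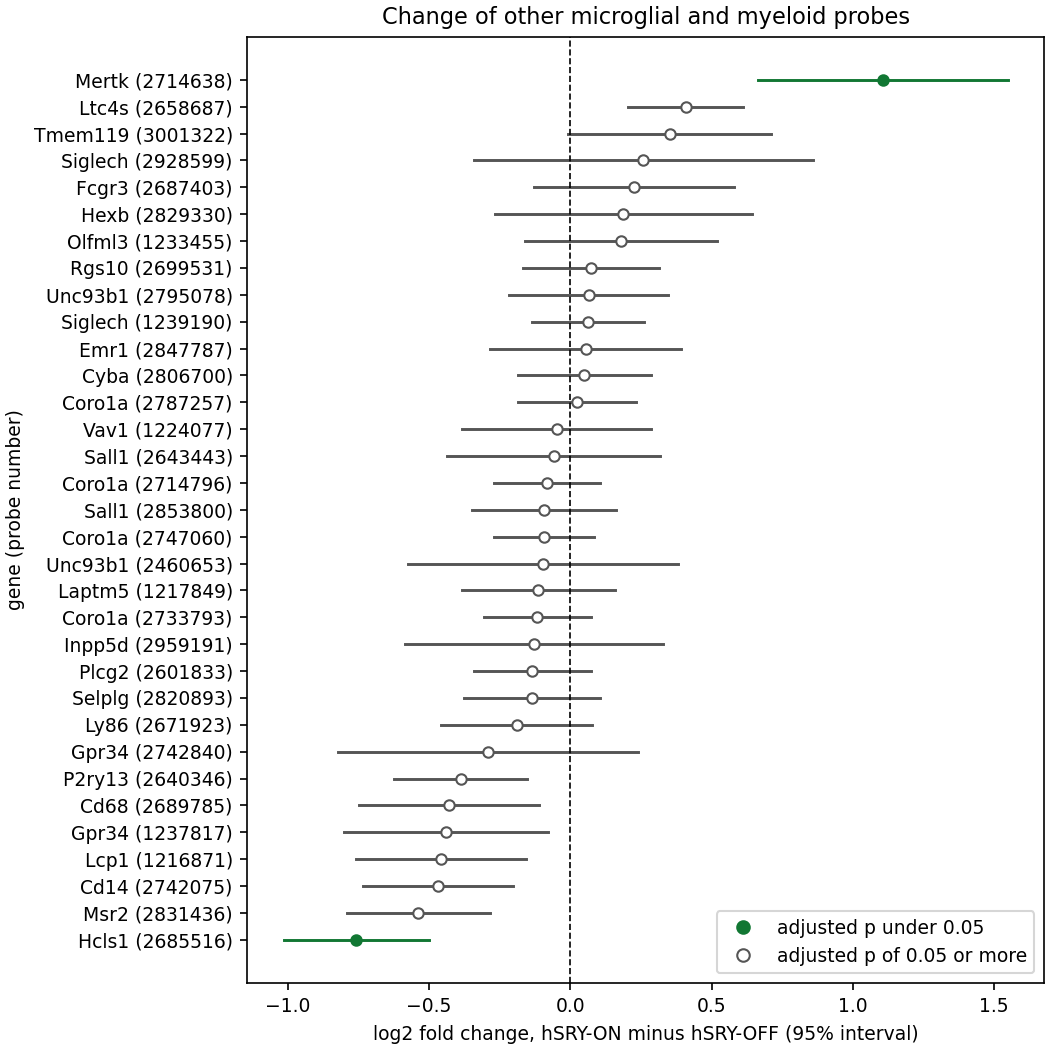
Log2 fold change (horizontal axis, hSRY-ON minus hSRY-OFF) with its 95% interval from limma for the 33 tested probes of other microglial and myeloid genes (vertical axis). Mertk at 1.11 and Hcls1 at -0.76 are filled, as their adjusted p was under 0.05, but Hcls1 was not detected in hSRY-ON, so its plotted value is not a measured fold.

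The rest of the complement system was read to set beside C1q. Of 30 fixed genes 28 were found and 13 had tested probes. Of the 14 tested probes 0 rose and 1 fell past an adjusted p of 0.05 in limma, against 0.844% and 1.32% of all tested probes. At an unadjusted p under 0.05 there were 3 higher and 1 lower, 28.6% of the list against 20.9% of all. The groups did not overlap for 35.7% of the list, against 27.7% of all. The fall was that of Vtn, which encodes vitronectin, an inhibitor of the terminal complement complex, from 11.40, 11.46 and 11.48 to 10.70, 10.84 and 11.02 (ILMN_1234111). All hSRY-ON arrays lay below all hSRY-OFF arrays, a log2 fold change of -0.59 (SE 0.10, limma adjusted p 0.0386). C2, which C1s cleaves in the classical pathway, had 0.32 (SE 0.12, adjusted p 0.195) with the groups apart. C1s, the protease bound to C1q, was detected on 3 hSRY-ON arrays and 0 hSRY-OFF arrays at 1 probe (ILMN_1257046), at least 1.07-fold higher in hSRY-ON (adjusted p 0.0889), and on 1 array at its other. It is 1 of the 3 higher probes counted above and passed the detection filter through hSRY-ON alone. C3, the component downstream of C1q, had -0.42 (SE 0.27, adjusted p 0.428), with hSRY-ON array 3 at 6.57 and the other hSRY-ON arrays at 5.65 and 5.53. The receptor genes C3ar1 and C5ar1, the C1ra and C4a genes and the regulators Cfi and Cd46 were among 12 complement genes below background on every array.

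Ligands and partners of the members were next. Of 17 tested probes of 14 genes, 0 passed in limma, and 4 had an unadjusted p under 0.05, 2 in each direction (23.5% against 20.9% of all tested probes). Csf1, a ligand of CSF1R, read 6.10, 5.92 and 5.96 in hSRY-OFF and 5.47, 5.56 and 5.10 in hSRY-ON, where 1 array detected it. The groups were apart with hSRY-OFF above (log2 fold change -0.61, SE 0.13, adjusted p 0.0662). Il34, the other ligand, listed as 2010004A03Rik, had -0.15 (SE 0.10, adjusted p 0.440), and Cx3cl1, which encodes fractalkine, had -0.07 (SE 0.09, adjusted p 0.697). Tgfbr2, a receptor for the TGF-beta signal that maintains microglial identity, had -0.45 (SE 0.09, adjusted p 0.0565) at its tested probe. On the upper side were Nptx1, a neuronal pentraxin able to bind C1q, at 0.38 (SE 0.10, adjusted p 0.0940) and the CR3 ligand gene Icam1 at 0.27 (SE 0.09, adjusted p 0.159), both with the groups apart.

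A list of genes of postnatal axon-tract and activated microglia, a phagocytic state found in white matter in the first postnatal week, held mostly negative values. Of its 20 tested probes 17 were negative and 3 positive, with a median log2 fold change of -0.20 against 0.0048 for all probes. The median was -0.08 without background correction, -0.12 with normexp on the signals and an offset of 50, and -0.13 without hSRY-ON array 1. At an unadjusted p under 0.05 there were 5 lower and 0 higher (25% against 20.9% of all probes), and the groups did not overlap for 4 (20% against 27.7%). One was called, Spp1, which encodes osteopontin, from 6.32, 6.50 and 6.31 to 5.50, 5.33 and 5.77 (ILMN_2690603). Its groups were apart, and hSRY-ON array 2 was below detection. The fall was -0.84 on the log2 scale (SE 0.13, limma adjusted p 0.0327). Lgals1 followed at -0.52 (adjusted p 0.217), while Ctsl at 0.21 (adjusted p 0.543) and Ctsd at 0.10 (adjusted p 0.750) were highest. Clec7a, Cst7 and Itgax, which define the activated state, were below background.

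Of 16 inflammatory genes, 9 were below background on every array, among them Il1a, Il1b, Il6, Tnf, Ccl2, Ccl5 and Cxcl10. The 5 tested probes included 0 calls in limma. At an unadjusted p under 0.05 there were 2 higher and 1 lower, 60.0% of only 5 probes against 20.9% of all. The median log2 fold change was 0.26, and 0.10 without hSRY-ON array 1. The largest rises were Tlr7 at 0.45 (adjusted p 0.401) and Icam1 as above. The falls were Tlr2 at -0.16 (adjusted p 0.739) and Socs3, a feedback inhibitor of cytokine signalling, at -0.27 (adjusted p 0.177).

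**Figure D4:**
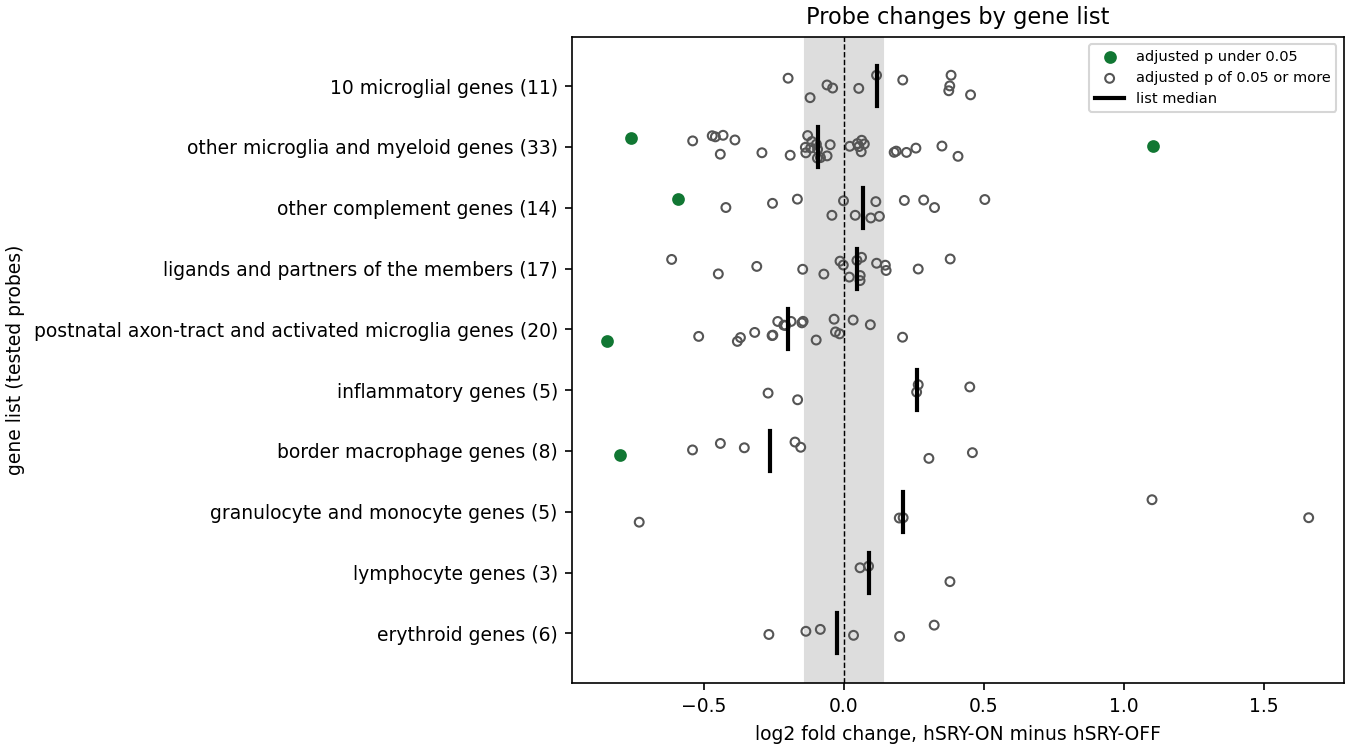
Log2 fold change (horizontal axis, hSRY-ON minus hSRY-OFF) of every tested probe in the microglial gene set and 9 other gene lists, brain tissue markers left out (vertical axis, number of probes in brackets), with the list median as a bar and the quartiles of all 14215 tested probes, -0.14 to 0.14, as a grey band. Filled points passed an adjusted p of 0.05, and the median was 0.12 for the 10 microglial genes and -0.20 for axon-tract and activated microglia. Probes not detected in one of the groups are plotted at their fitted value, which is not a measured fold.

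Macrophages at the borders of the brain and blood leukocytes share several of these genes, and their markers were read beside them. Of 8 tested border macrophage probes, 1 was higher and 3 were lower at an unadjusted p under 0.05 (50% against 20.9% of all probes). One fell past the adjusted threshold, which 1.32% of all probes did, for the endocytic adaptor Dab2 (ILMN_3091641), from 10.22, 10.04 and 10.19 to 9.23, 9.39 and 9.44 with the groups apart (log2 fold change -0.80, SE 0.10, limma adjusted p 0.0263). Its second detected probe had -0.54 (adjusted p 0.0861), whereas F13a1 had 0.46 (adjusted p 0.123) and Maf 0.30 (adjusted p 0.262). Of the defining markers, Mrc1 had -0.15 (adjusted p 0.491) and Cd163 was below background on every array. The summed deposited signal over the 8 probes was 4031 to 4676 in hSRY-OFF and 3382 to 3534 in hSRY-ON, against 5664 to 6120 and 6114 to 6590 over the 11 members' probes. Bright probes weigh most in these sums, which are not totals of a cell type. Mean signals in hSRY-OFF and hSRY-ON were 1330 and 788 for Dab2 probe ILMN_3091641, 1008 and 1208 for C1qb and 1060 and 1327 for C1qc. Trem2, also a member, had 488 and 429. The part of border macrophages in the C1q values was not tested.

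Among granulocyte and monocyte genes, 5 probes were tested and 0 passed in limma (2 at an unadjusted p under 0.05, 40% of only 5 probes against 20.9% of all). Those 2 were Lcn2 and Plac8, each of which passed the detection filter through 1 group alone and so had to differ. Lcn2 was detected in hSRY-ON only, at 6.06, 5.82 and 7.74, at least 2.12-fold above hSRY-OFF (adjusted p 0.112), or at least 1.4-fold without hSRY-ON array 3. S100a8 read 6.56, 7.41 and 9.77 in hSRY-ON and 6.52 to 7.17 in hSRY-OFF (adjusted p 0.439). hSRY-ON array 3 was far above the other arrays for both, and it was the lowest hSRY-ON array for C1qa, C1qb and C1qc. Plac8 went the other way, at least 1.39-fold higher in hSRY-OFF (adjusted p 0.0801), and Camp had a log2 fold change of 0.20 (adjusted p 0.514). The summed signal of the 5 probes was 1140 to 1209 in hSRY-OFF and 1195 to 2075 in hSRY-ON, and Ccr2, which marks monocytes, was below background. Lymphocyte genes gave 3 tested probes and 0 calls in limma (1 at an unadjusted p under 0.05, 33.3% of only 3 probes against 20.9% of all). Their summed signals were 809 to 900 and 787 to 899, and Cd4, Cd8a and Ms4a1 were below background. That 1 probe, for Cd79b, was detected in hSRY-ON only and so passed the detection filter through that group alone, at least 1.23-fold higher there (adjusted p 0.111). Erythroid genes gave 6 tested probes and 0 calls (0 at an unadjusted p under 0.05), with a median of -0.02 and summed signals of 33539 to 40486 and 30059 to 38239, so blood was present in both groups. Among them Ahsp, listed as Eraf, had 0.32 (adjusted p 0.557) and Alas2 -0.27 (adjusted p 0.516). Of the 14 tested probes of brain tissue markers, 4 were lower and 0 higher at an unadjusted p under 0.05 (28.6% against 20.9% of all probes), 9 were negative, and the median log2 fold change was -0.11. One was called, for the astrocyte filament gene Gfap, which fell by 0.83 on the log2 scale (SE 0.12, limma adjusted p 0.0308). The next value down was that of the myelin gene Mbp at -0.47 (adjusted p 0.0601, probe ILMN_2737200), and the highest were the neuronal gene Stmn2 at 0.08 (adjusted p 0.602) and the endothelial gene Pecam1 at 0.07 (adjusted p 0.765).

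The 6 calls in these lists, for Mertk, Hcls1, Vtn, Spp1, Dab2 and Gfap, kept their direction in every alternative fit that tested them, but not always their size or their call. Hcls1 passed the detection filter through hSRY-OFF alone and so had to differ, and its kept direction is no sign of stability. Without background correction the log2 fold change was -0.25 for Spp1, 0.65 for Mertk and -0.51 for Gfap, and the adjusted p of Hcls1 was 0.0601. With normexp on the signals and an offset of 50 the log2 fold change of Spp1 was -0.44. With no filter on dim probes the adjusted p was 0.0573 for Mertk and 0.0606 for Vtn. All 6 were lost without hSRY-OFF array 1, 2 or 3 and without hSRY-ON array 1 or 2, with adjusted p up to 0.130 and unadjusted p of at most 0.00307, and all 6 passed without hSRY-ON array 3. In the same fits without an array, all 14215 probes together held 0 or 1 call, or 393 without hSRY-ON array 3.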

How the data were processed

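The authors deposited a mean bead signal intensity per probe and array on a linear scale, without stated background correction or scaling, together with its detection p-value, which reads how often control beads with no target reach that brightness. Per the labels, RNA was extracted with Trizol Plus and labelled with Ambion TotalPrep. The study names TCC and the labels limma, without settings. Here, in R 4.3.3 with limma 3.58.1, intensities were corrected with normexp from the detection p-values (offset 16), quantile normalized and put on the log2 scale. The 14215 probes that 3 or more of the 6 arrays detected (detection p-value under 0.05) were tested with lmFit and eBayes, group as the only term, two-sided, with Benjamini-Hochberg adjustment over all of them. Every adjusted p and 95% interval in the text is from limma. Probes of 1 gene were tested separately. With 3 arrays per group, p-values weigh the group difference against the spread between arrays within a group, estimated with the help of all tested probes. The number of arrays limits precision.

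The members, gene lists and naming rule were chosen with earlier results of these data known. Named were every probe of the members, every called probe of a list, its 2 largest rises and falls, and the 5 probes most correlated with the C1q mean; other names are stated as such or describe a ligand, a marker or a probe below background. Symbols are current ones where list genes carry an older name on the array (C1ra is listed there as C1r): 7 list genes were found by an older symbol and 3 through RefSeq synonyms, and 7 not found were not analysed here. Fits without an array kept the same tested probes. The fit was tested on simulated data. Alternatives were other background corrections, normalizations and filters, a replicate block, each array left out, another prior and array weights. Leaving out an array for the bounds on undetected probes was chosen after seeing the data. Promoters are from RefSeq (GRCm38.p6). Figures used matplotlib 3.10.9 in Python 3.11.15.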

Additional observations from a re-analysis of the deposited data

How the results depend on the processing

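The count of members' probes called, 0 as reported, became 2 without background correction, 2 with normexp on the signals and an offset of 50, 2 under a filter of detection p-values under 0.01 on all 6 arrays and 2 with a trend and robust prior, each time C1qb and C1qc. It became 1, C1qc, with array quality weights, and 0 to 1 with an array left out. The members' median log2 fold change of 0.12 became 0.054 without background correction, and 0.063 to 0.23 with an array left out. The 6 calls in the other lists became 16, 13, 10 and 16 in the first 4 of these settings, 4 with no filter on dim probes, 0 with the replicate block and 0 to 9 with an array left out. Signs turned for Cx3cr1 (0.019 with array quality weights, 0.063 without hSRY-OFF array 1 and 0.088 without hSRY-ON array 3, with -0.13 to 0.088 over the fits without an array), Csf1r probe ILMN_1230485 (-0.0058 without hSRY-OFF array 1, range -0.0058 to 0.26), Tyrobp (-0.012 without hSRY-OFF array 1, range -0.012 to 0.088) and Aif1 probe ILMN_2804487 (0.054 without hSRY-ON array 2, range -0.18 to 0.054), so these have no settled direction, and the cause was not tested. With the replicate number as a block, 0 members' probes passed, at a lowest adjusted p of 0.124, with the same median of 0.12, and calls over all probes went from 308 to 0 in limma (2906 at an unadjusted p under 0.05). Deviations of same-numbered arrays correlated at 0.04, 0.03 and 0.03, so the numbers were not taken as pairs, although each array correlated best with its own number. Dim probes such as Csf1, C1s and Hcls1 lay close to background, which limits what their values show.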
